A study of Homo sapiens with 4 samples.

Results

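The zinc finger genes of chromosome 19p12 are a cluster of related genes, much of which expanded in the primate lineage. The members were 36 protein-coding ZNF genes of the cluster, from ZNF101 to ZNF254 in chromosomal order, taken from a list of symbols. All 36 had a row among the 28775 promoters of the table. The rule used symbols and position and no measured value, though the list was drawn up with earlier results of these data known. The study used ATAC-seq, which reads open chromatin from where the transposase Tn5 inserts adapters, on the embryonic kidney line HEK293T, a human line with an aneuploid karyotype. Wild-type (WT) and MORC2 knockout (KO) cells gave 2 libraries each, and the question was whether loss of MORC2 alters promoter accessibility. The KO libraries came from uncloned pools, KO replicate 1 made with guide 1 and KO replicate 2 with guide 2, so guide and replicate cannot be told apart.

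Most genes of the cluster encode KRAB zinc finger proteins, transcriptional repressors that bind DNA through arrays of C2H2 fingers and recruit the co-repressor TRIM28 through the KRAB domain. TRIM28 brings in the histone methyltransferase SETDB1, which deposits H3K9me3. Several of these proteins silence transposable elements: ZNF91 represses SVA elements and ZNF93 represses LINE-1 elements. MORC2 is an ATPase that works with the HUSH complex in H3K9me3-dependent silencing, and zinc finger gene clusters are themselves known to carry H3K9me3.

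The members share a protein fold, and most of those with a promoter sequence at hand are also alike there. Here 4 upstream sequences show that similar DNA lay in front of genes with very different accessibility. ZNF91 and ZNF254 had open promoters in these cells and ZNF486 and ZNF93 nearly closed ones. The sequences are the 250 bases before the annotated start in RefSeq (GRCh38.p14), 5′ to 3′ on the strand of the gene, with capitals marking the CCAAT box on either strand (CCAAT or ATTGG).
ZNF91: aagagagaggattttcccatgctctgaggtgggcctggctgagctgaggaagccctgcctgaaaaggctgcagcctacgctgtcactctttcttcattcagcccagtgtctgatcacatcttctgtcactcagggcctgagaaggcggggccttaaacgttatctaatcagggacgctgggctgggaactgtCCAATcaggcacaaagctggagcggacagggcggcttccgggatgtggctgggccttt
ZNF254: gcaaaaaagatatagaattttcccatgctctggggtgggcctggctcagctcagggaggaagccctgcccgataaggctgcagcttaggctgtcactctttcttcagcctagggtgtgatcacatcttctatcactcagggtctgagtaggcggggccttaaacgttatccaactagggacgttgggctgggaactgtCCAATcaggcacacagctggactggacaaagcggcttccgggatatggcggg
ZNF486: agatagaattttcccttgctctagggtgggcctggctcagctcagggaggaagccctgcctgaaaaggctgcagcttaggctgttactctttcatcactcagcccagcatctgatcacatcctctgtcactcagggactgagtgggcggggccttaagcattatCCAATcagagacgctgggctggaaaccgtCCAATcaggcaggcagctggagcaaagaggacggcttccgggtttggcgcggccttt
ZNF93: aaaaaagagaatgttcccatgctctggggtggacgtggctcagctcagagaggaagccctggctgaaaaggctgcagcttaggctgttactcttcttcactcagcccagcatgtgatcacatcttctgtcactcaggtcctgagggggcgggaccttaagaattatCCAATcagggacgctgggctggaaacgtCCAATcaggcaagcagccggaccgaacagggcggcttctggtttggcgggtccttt

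Of the 36 members, 28 had a RefSeq promoter sequence. A CCAAT box, the site bound by the factor NF-Y, was present in 28 of 28, against 34.0% of 19554 promoters of genes in the table. At least 2 boxes were present in 20 of 28 members, against 11.1% of all promoters. The boxes also stood at a similar distance from the start: 44 of the 50 lay between −95 and −35, and 26 of the 28 members had a box there. In ZNF486 and ZNF93 there were 2 boxes, and in ZNF91 and ZNF254 the distal box was absent and the proximal one present. With promoters called high over 12 and low under 4 counts relative to the library total (CPM, a scale of equal library size), 2 or more boxes were found in 12 of 13 low and 7 of 13 high members with a sequence. This is not a count of the distal box: a further box lay at −15 in ZNF681 (low) and −23 in ZNF675 (high). ZNF14 (high) had boxes at −247, −64 and −53. Whether box number follows class was not tested.

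**Figure D1:**
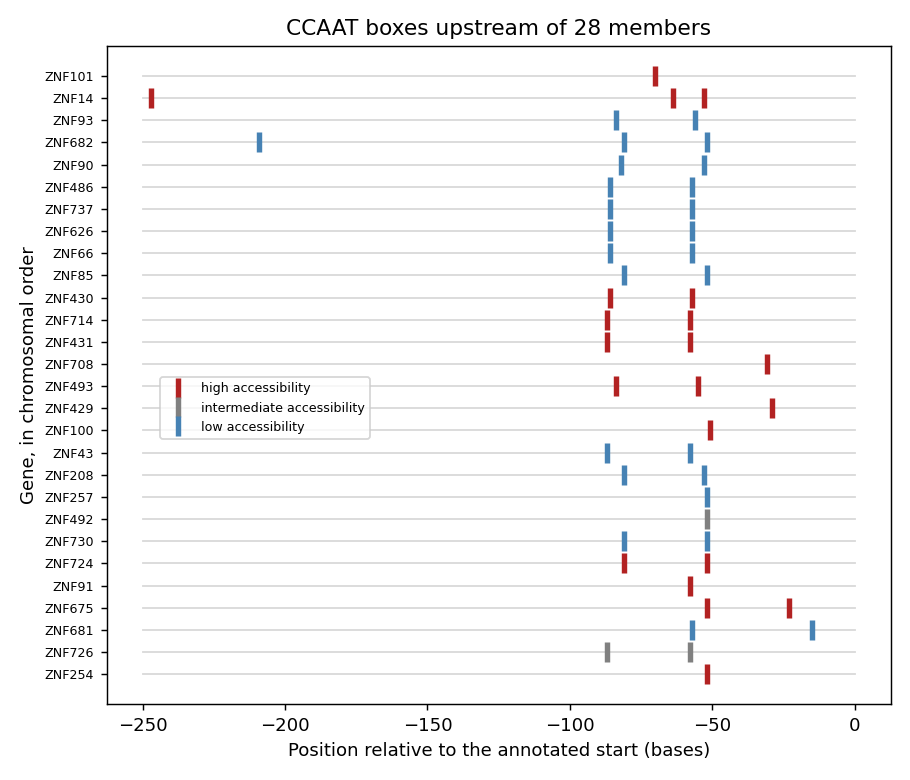
Positions of CCAAT boxes (ticks, either strand) in the 250 bases before the annotated start of 28 members in chromosomal order, coloured by accessibility class; the horizontal axis is in bases from the start. Ticks stack between −95 and −35 in genes of all classes.

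Some longer runs of letters recurred among the members. The run CTGTCACTCAGG, searched on both strands, was found in 18 of 28 members (6 high and 10 low) and in 17 of 19526 other promoters, 0.0871%. The run GTCCAATCAGGC, which holds the proximal CCAAT box, was found in 18 members (8 high and 8 low) and in 9 other promoters, 0.0461%. These runs were picked because members share them, so their counts are a description.

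Of the common promoter motifs searched, the ETS core CCGGAA was in 19 of 28 members (7 high and 10 low) and in 17.8% of all promoters. The GC box GGGCGG was in 21 members (8 high and 11 low) and in 51.1% of all promoters. The TATA box TATAAA was in 3 members, all high, against 9.55%. The YY1 core ATGGCG was in 1 member against 7.19%, and GCGCATG, a motif of NRF1, in 0 against 4.71%. Overlap between motifs was allowed. CpG dinucleotides were few: the median was 8 in high and 8 in low members, against 16 over all promoters, and the ranges of 3 to 14 and 6 to 12 overlapped.

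Upstream sequence was similar among most of the 28 members, with 6 that shared less. ZNF101 and ZNF14 shared between 42.0% and 64.4% of bases with any other member (median 56.8%). Inside the cluster ZNF429, ZNF708, ZNF682 and ZNF675 had median identities of 62.8%, 64.0%, 68.8% and 70.8% to the other members. The 22 members left shared 74.8% to 92.0% with one another (median 81.2%). The 6 that shared less were picked after their values were seen, and all are high members except ZNF682, which is low. Without ZNF101 and ZNF14, high members shared a median of 77.6% with one another, low members 81.2%, and a high and a low member 80.0%. These medians still include ZNF429, ZNF708 and ZNF675 among the high members and ZNF682 among the low. Whether likeness follows class was not tested. ZNF91 and ZNF486, of opposite class, shared 85.2%, and ZNF91 and ZNF208, a low member, 88.0%. ZNF14 shows how different the first genes of the cluster are, ZNF430 is an open and ZNF681 a closed promoter from inside it, each with a proximal box.
ZNF14: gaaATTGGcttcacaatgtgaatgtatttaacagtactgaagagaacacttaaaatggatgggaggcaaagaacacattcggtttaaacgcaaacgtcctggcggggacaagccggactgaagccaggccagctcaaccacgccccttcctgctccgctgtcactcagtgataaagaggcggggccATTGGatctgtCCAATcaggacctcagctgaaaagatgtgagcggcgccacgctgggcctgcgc
ZNF430: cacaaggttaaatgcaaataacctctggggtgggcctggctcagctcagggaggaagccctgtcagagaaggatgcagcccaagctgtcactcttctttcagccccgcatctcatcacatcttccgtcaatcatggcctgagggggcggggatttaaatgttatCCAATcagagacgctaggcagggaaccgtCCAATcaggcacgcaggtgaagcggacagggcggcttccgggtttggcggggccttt
ZNF681: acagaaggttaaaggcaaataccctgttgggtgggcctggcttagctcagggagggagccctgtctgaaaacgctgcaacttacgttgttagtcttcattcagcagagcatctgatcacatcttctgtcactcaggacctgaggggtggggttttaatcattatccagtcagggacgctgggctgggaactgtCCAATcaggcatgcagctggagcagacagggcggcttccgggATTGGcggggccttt

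**Figure D2:**
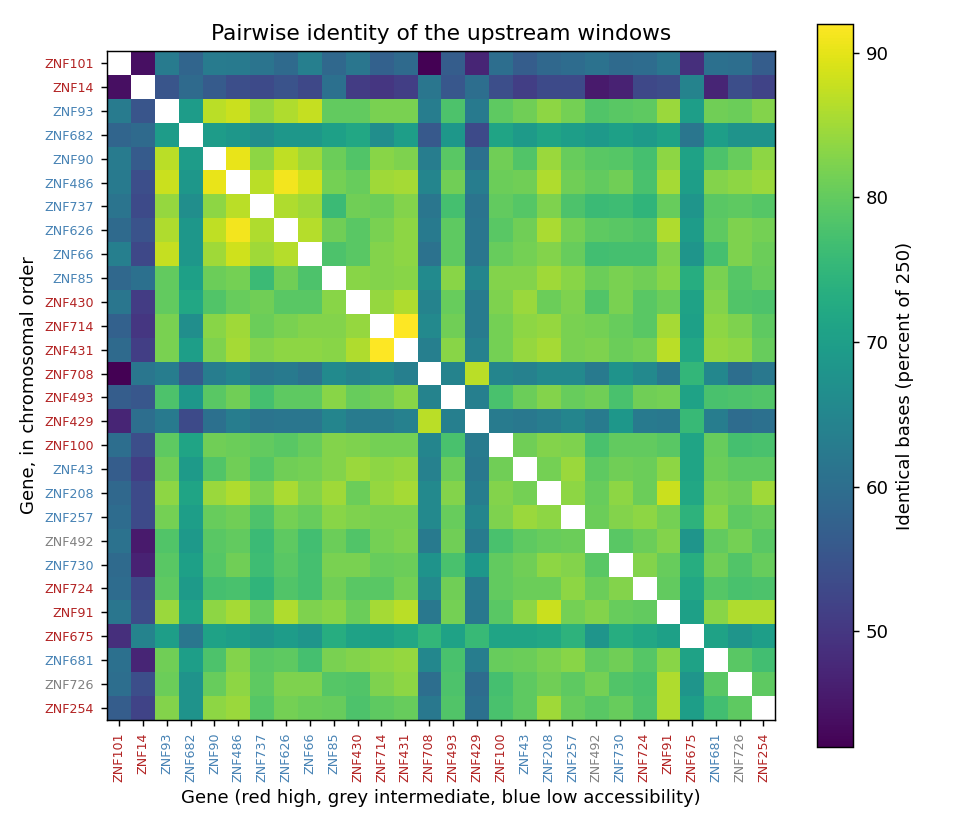
Identity between the 250-base upstream windows of 28 members, as percent of identical aligned bases; gene names are red for high, grey for intermediate and blue for low accessibility. Rows of ZNF101, ZNF14, ZNF429 and ZNF708 are darkest, those of ZNF682 and ZNF675 intermediate, and the lighter rows carry names of each colour.

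Because related promoters can hold reads that map to several places, the windows were compared at the read length. No stretch of 65 bases, the length of a read, in the 300-base windows of these 28 members recurred in the RefSeq promoter of another gene, and the longest run shared by any pair was 46 bases. The remainder of the counted windows and the rest of the genome were not compared. The authors removed poorly mapped pairs, and fragments lost in this way were not measured.

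Accessibility of the members was then compared by their fragment counts, scaled to CPM with TMM factors. Libraries held 9435801 to 15152636 counts, of which mitochondrial rows took 20.6% to 35.1%, and KO replicate 2 was the deepest. Promoters of genes of the HEK293 lineage ranged from 6.58 CPM at PAX2 to 79.2 at VIM (means of 4 libraries), and 6 of 7 were over 12 CPM. Among promoters for other lineages, PTPRC had 1.55 CPM and ALB 2.06, while MYOD1 had 16.9.

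The 19p12 promoters fell into 2 sets of accessibility in these cells. On the mean of all 4 libraries, 14 members had 16.3 to 31.6 CPM (median 22.1; 144 to 540 fragments per library) and 20 had 0.831 to 2.57 CPM (median 2.04; 7 to 40 fragments). The gap between the sets was 6.35-fold, and the medians differed 10.9-fold. ZNF492, at 9.29 CPM, and ZNF726, at 5.79 CPM, lay between them. The limits for low (under 4 CPM) and high (over 12 CPM) were set after the values were seen, so the split is a description; 0 members changed class when WT or KO libraries were used alone.

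Open and closed promoters were arranged in blocks. ZNF101 and ZNF14, at the start of the cluster, were high, and the next 10 genes, from ZNF506 to ZNF85, were all low. The following 8, from ZNF430 to ZNF100, were all high, and the 6 from ZNF43 to ZNF98 were all low. After ZNF492 came 3 more low genes, ZNF99, ZNF728 and ZNF730. ZNF724, ZNF91 and ZNF675 were high, ZNF681 was low, ZNF726 intermediate, and ZNF254, the last gene, high. Of 21 other rows inside the interval, mostly long noncoding RNAs and pseudogenes but also the ZNF gene ZNF723, 18 were low and 3 high. A promoter open in fewer cells and one less open in each cell cannot be told apart in bulk counts.

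**Figure D3:**
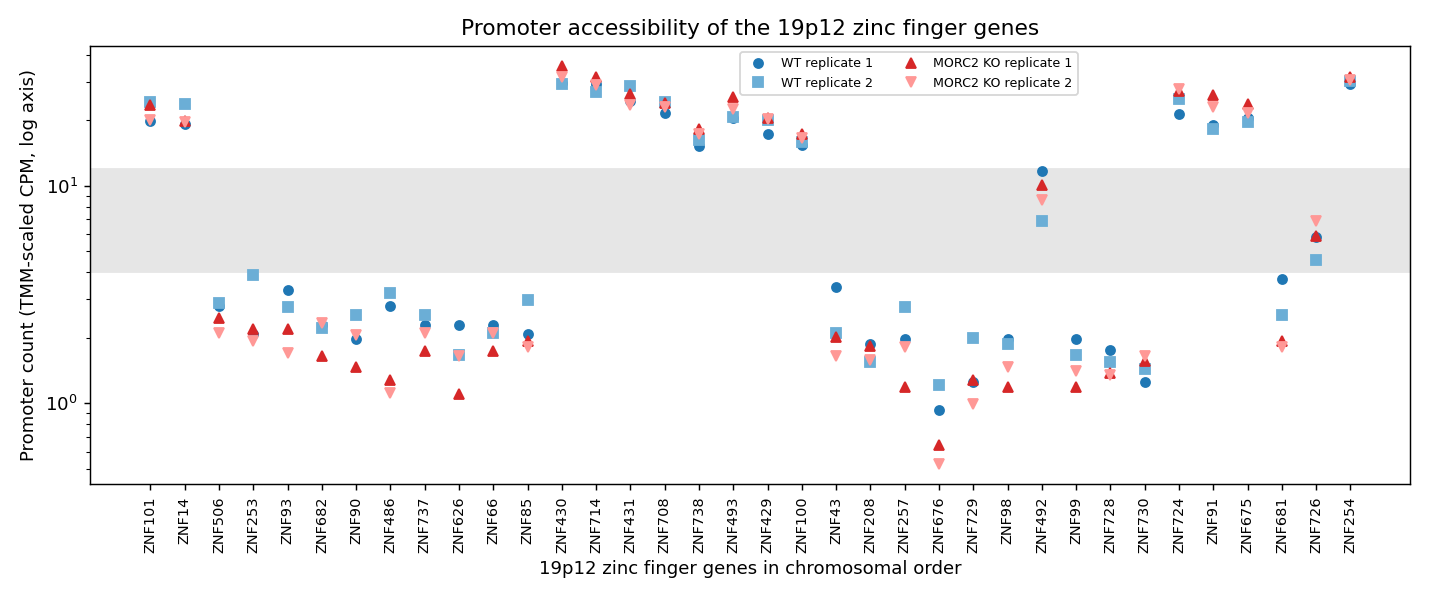
TMM-scaled CPM (log axis) of each library at the 36 promoters in chromosomal order; blue symbols are WT, red symbols MORC2 KO, and the grey band marks 4 to 12 CPM. Members lie above or below the band in blocks, with ZNF492 and ZNF726 inside it.

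The 3 most accessible promoters in WT were ZNF254, ZNF430 and ZNF714. ZNF254 had 29.3 and 30.2 CPM in WT replicates 1 and 2, and 31.7 and 30.6 in KO replicates 1 and 2. ZNF430 had 29.8 and 29.3 CPM in WT and 35.6 and 31.7 in KO. ZNF714 had 29.5 and 26.9 CPM in WT and 31.5 and 29.0 in KO, so that its groups overlapped. The WT means of these 3, 29.8 ± 0.672, 29.6 ± 0.321 and 28.2 ± 1.82 CPM (SD, n = 2), differed by less than the spread of ZNF714.

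The 3 least accessible promoters in WT were ZNF676, ZNF730 and ZNF729. ZNF676 held 9 and 11 fragments in WT and 7 and 9 in KO, and it was the only member removed by the filter on low counts. ZNF730 held 12 and 13 fragments in WT and 17 and 28 in KO. ZNF729 held 12 and 18 in WT and 14 and 17 in KO. The libraries of one group differ by up to as much as these promoters do, so their order cannot be read, and the level is near that of PTPRC and ALB, whose genes are used by leukocytes and by hepatocytes.

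Within the first low block, values were alike from gene to gene. ZNF506 held 27 and 26 fragments in WT and 27 and 36 in KO, or 2.80 and 2.88 CPM against 2.48 and 2.11. ZNF253 was uneven in WT, at 2.08 and 3.88 CPM, and had 2.20 and 1.94 in KO. ZNF85, at the far end of the block, had 2.08 and 2.99 CPM in WT and 1.93 and 1.82 in KO. Only ZNF486 of these 10 promoters passed the test between KO and WT, and the other 9 had log2 fold changes from −0.68 (ZNF93) to −0.12 (ZNF682).

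Next to it, ZNF430 was the first of 8 open promoters, with a mean of 31.6 CPM over the 4 libraries against 2.20 at ZNF85. ZNF431 had 24.4 and 28.7 CPM in WT and 26.4 and 23.6 in KO, and ZNF708 had 21.5 and 24.3 in WT and 24.0 and 23.0 in KO. Both overlapped between the groups. ZNF493 had 20.6 and 20.7 CPM in WT and 25.5 and 22.6 in KO (log2 0.21, SE 0.102, adjusted p = 0.226, edgeR), without overlap. ZNF100, the last of the block, had 15.5 and 15.9 CPM in WT and 17.2 and 16.5 in KO.

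The second low block began with ZNF43, at 3.43 and 2.10 CPM in WT and 2.02 and 1.64 in KO (log2 −0.63, adjusted p = 0.206, edgeR). ZNF208, whose upstream sequence is close to that of ZNF91, had 1.87 and 1.55 CPM in WT and 1.83 and 1.58 in KO, a log2 fold change of −0.03. ZNF98 had 1.97 and 1.88 CPM in WT and 1.19 and 1.47 in KO, and ZNF99 had 1.97 and 1.66 in WT and 1.19 and 1.41 in KO. In both, KO lay below WT at counts of 13 to 25 fragments, and neither passed the test (adjusted p = 0.413 and 0.474, edgeR).

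At the start of the cluster the open promoters of ZNF101 and ZNF14 had fold changes below 0 under TMM scaling. ZNF101 had 19.8 and 24.4 CPM in WT and 23.4 and 20.1 in KO (log2 −0.04), and ZNF14 had 19.3 and 23.8 in WT and 19.9 and 19.6 in KO (log2 −0.13). ZNF431 was the remaining high member below 0, at −0.10. ZNF724, beside ZNF91, had 21.4 and 25.0 CPM in WT and 27.3 and 27.9 in KO (log2 0.25, SE 0.0964, adjusted p = 0.102, edgeR), and its row is similar in every library to that of the pseudogene IPO5P1. None of these promoters passed the test.

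Closed promoters took a larger share of the cluster than of the table. Low promoters made up 55.6% of the 36 members, 28.9% of all promoters and 12.9% of the 442 other rows with a ZNF symbol, whose median was 24.1 CPM against 2.52 for the members. In the zinc finger cluster of 7q11.21, 3 of 10 promoters were low and 5 high. In that of 19q13.31, 4 of 19 were low and 11 high. These shares were not tested, since neighbouring promoters are not independent.

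To ask whether these promoters differ without MORC2, KO was compared with WT. Of the 35 members tested, ZNF91 rose and ZNF486 fell at an adjusted p under 0.05 (edgeR quasi-likelihood test, Benjamini-Hochberg over 27647 promoters). That is 1 higher and 1 lower, where 3.45% of all tested promoters were higher and 0.995% lower (4.45% in either direction). With loess offsets the split over all promoters was 217 higher and 177 lower in place of 954 and 275. Before adjustment, p was under 0.05 at 7 members, of which 3 were higher and 4 lower; this held for 20.3% of all tested promoters (11.5% higher and 8.87% lower), and 7 of 35 is near that share. The methods describe the WT libraries as independent replicates and the KO libraries as separately made lines, so p-values rest on the spread within these pairs of libraries.

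ZNF91, the repressor of SVA elements, had 184 and 165 fragments in WT replicates 1 and 2 and 285 and 392 in KO replicates 1 and 2. On the CPM scale this was 19.1 and 18.3 in WT and 26.1 and 23.0 in KO, with the KO values above those of WT and no overlap. The means were 18.7 ± 0.589 CPM in WT and 24.6 ± 2.23 in KO (SD, n = 2). The fold was 1.30 (log2 0.38, SE 0.104, adjusted p = 0.0161, edgeR). The adjusted p was 0.0682 with offsets that remove the trend of fold change with abundance (loess offsets), 0.352 with total count scaling and 0.779 in DESeq2. It was 0.147 without KO replicate 1, 0.0837 without KO replicate 2 and 0.148 without WT replicate 2.

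ZNF486, a low member and a neighbour of ZNF90 and ZNF737, had 27 and 29 fragments in WT and 14 and 19 in KO. This was 2.80 and 3.21 CPM in WT and 1.28 and 1.11 in KO, with no overlap between the groups. The mean was 3.01 ± 0.288 CPM in WT and 1.20 ± 0.120 in KO, a ratio of KO to WT of 0.396 (log2 −1.34, SE 0.322, adjusted p = 0.00421, edgeR). With loess offsets the log2 fold change was −1.05 and the adjusted p 0.0639; with total count scaling the adjusted p was 0.225 and in DESeq2 0.706. The adjusted p was 0.231 without KO replicate 2 and 0.0929 without WT replicate 2.

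The other repressor of transposable elements, ZNF93, was in the low set. It had 32 and 25 fragments in WT and 24 and 29 in KO, or 3.32 and 2.77 CPM in WT and 2.20 and 1.70 in KO. KO values lay below those of WT without overlap, but the log2 fold change of −0.68 (SE 0.290) had an adjusted p of 0.153 in edgeR. ZNF675, which binds the signalling protein TRAF6, had 20.6 and 19.6 CPM in WT and 23.8 and 21.7 in KO (log2 0.17, SE 0.104, adjusted p = 0.358, edgeR). Neither of these promoters passed the test.

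Among the remaining promoters with large fold changes, none passed the test in edgeR. ZNF681 had 3.74 and 2.55 CPM in WT and 1.93 and 1.82 in KO (log2 −0.76, SE 0.289, adjusted p = 0.102). Its row nearly repeats that of the neighbouring gene RPSA2, with 36, 23, 21 and 31 fragments in WT 1, WT 2, KO 1 and KO 2 against 35, 24, 21 and 29, so these rows are not independent. ZNF726 had 5.82 and 4.54 CPM in WT and 5.87 and 6.92 in KO (log2 0.32, adjusted p = 0.349). ZNF730 had 1.25 and 1.44 in WT and 1.56 and 1.64 in KO (log2 0.26, adjusted p = 0.721), the 1 tested low member with a positive fold change under TMM scaling. The WT libraries of ZNF492 were uneven, at 11.6 and 6.87 CPM, with KO at 10.1 and 8.56 between them.

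The high and the low promoters differed in the sign of their fold changes. Of the 14 high members, 11 had a positive log2 fold change (median 0.11, range −0.13 to 0.38). The KO values exceeded both WT values at 9 of them and were under them at 0, with 5 overlapping. Over all tested promoters the shares were 25.2% above and 25.4% below. Of the 19 low members tested, 18 had a negative fold change (median −0.46, range −1.34 to 0.26), with KO below WT at 12, above at 1 and overlapping at 6. These signs are under TMM: positive fold changes numbered 14 of 14 high and 3 of 19 low members with total count scaling, and 5 of 19 low members with loess offsets. Over all 35 the median was −0.12, against −0.02 over all tested promoters. With total count scaling, which shifts the median of all promoters from −0.02 to 0.12, the median of the 35 was 0.02.

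**Figure D4:**
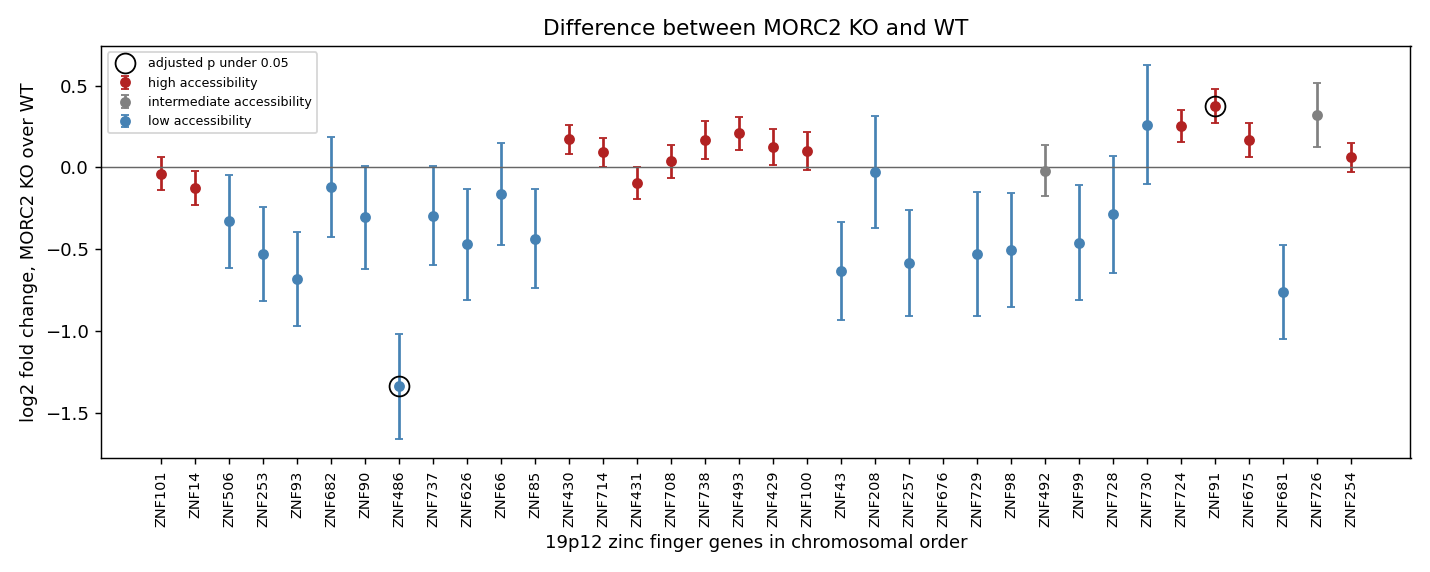
Log2 fold change of MORC2 KO over WT with its standard error (bars) at the 35 tested members in chromosomal order, coloured by accessibility class. ZNF91 and ZNF486 are circled, and low members sit below 0 except ZNF730 under this TMM scaling; 5 of 19 are above 0 with loess offsets and 3 with total count scaling.

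The same dependence on count was present in all promoters of the table. Of 4562 promoters within the CPM range of the high members, 60.6% had a positive fold change, with a median of 0.04. Both KO values were above both WT values at 1450 of these and below at 636. Of 3879 tested promoters within the range of the low members, 20.6% had a positive fold change and the median was −0.28. Among these, KO was above WT at 165 and below at 1572 without overlap. With loess offsets the median was 0.10 for the high members (11 of 14 positive) and −0.15 for the low members (5 of 19 positive). Over all promoters of the same CPM ranges the loess medians were 0.00069 and 0.019, with 50.2% and 52.1% positive. Whether the members differ from these ranges was not tested. Under loess offsets 0 members were called in edgeR, and 4 had an unadjusted p under 0.05 (3 higher and 1 lower). Of all 27647 tested promoters, 1868 were higher and 1736 lower at that unadjusted p. Depth also differed, with a median of 250 fragments per promoter in KO replicate 2, 162 in KO replicate 1, and 142 and 132 in WT replicates 1 and 2. Without KO replicate 2 the median log2 fold change was −0.46 for the low members and 0.16 for the high members. The part of depth in the result was not tested.

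**Figure D5:**
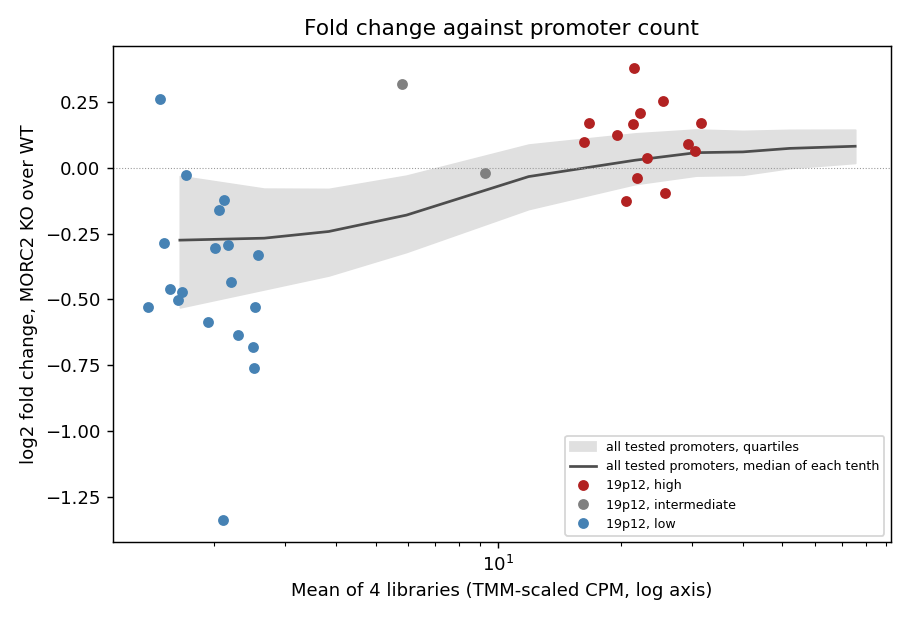
Log2 fold change of MORC2 KO over WT against the mean TMM-scaled CPM of 4 libraries (log axis) for 35 members, coloured by accessibility class, with the median (line) and quartiles (band) of 10 abundance classes of all tested promoters. The line runs from −0.27 in the lowest class to 0.08 in the highest, and low members lie mostly on or below it.

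The precision of single members followed their counts. Standard errors of the log2 fold change were 0.0874 to 0.118 for high and 0.284 to 0.379 for low members, so differences at the low promoters that are well below the size seen at ZNF486 were not detectable at this depth. The 95% interval of the log2 fold change lay from −1.97 to −0.71 for ZNF486 and from 0.17 to 0.58 for ZNF91. At the open promoter of ZNF254 it lay from −0.11 to 0.24.

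Promoters beside the members and in other clusters gave these values. Inside the interval, LINC00663, a long noncoding RNA gene, had 441 and 434 fragments in WT and 646 and 994 in KO (log2 0.32, adjusted p = 0.00140, edgeR), and the pseudogene ZNF56P held nearly the same fragments. The other 18 tested rows of the interval did not pass the test, and the median of all 20 was −0.41. Of these 20 rows, 2 were called with loess offsets and 0 with total count scaling or in DESeq2. In the 19q13.31 cluster 17 of 19 fold changes were positive (median 0.27) and 2 promoters, ZNF227 and ZNF235, were higher. In the 7q11.21 cluster the median was 0.02 and 0 of 10 were called in edgeR. Before adjustment, 3 of these were higher at p under 0.05, as were 11.5% of all tested promoters. Over the 441 other ZNF rows tested, 37 were higher (8.39%) and 6 lower (1.36%), against 3.45% and 0.995% of all promoters under the same TMM scaling. Of all promoters over 12 CPM, 6.18% were higher and 0.541% lower. Of the 442 other ZNF rows, 75.8% lay over 12 CPM, against 52.7% of all promoters. The part of count in these shares was not tested.

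The partners through which KRAB zinc finger proteins act were measured in the same fit. TRIM28, the KRAB co-repressor, had 46.6 and 51.0 CPM in WT and 46.9 and 48.6 in KO (adjusted p = 0.872, edgeR). SETDB1 had 45.6 and 40.8 in WT and 44.1 and 42.3 in KO (adjusted p = 0.972). None of the 12 promoters of the co-repressor list was called, 3 being higher at an unadjusted p under 0.05 in edgeR. Before adjustment, 11.5% of all tested promoters were higher, as were 3065 of the 15168 over 12 CPM. Over all tested promoters 3.45% were called higher, and 6.18% of those over 12 CPM, where every promoter of the co-repressor and HUSH lists lay. Of the 4 promoters of the HUSH list, 3 were higher in KO: TASOR (log2 0.44), MORC2 itself (0.43) and PPHLN1 (0.26), the last losing its call with loess offsets (adjusted p = 0.232, edgeR), total count scaling (0.457), DESeq2 (0.959), the edgeR 4 fit (0.0631), limma-trend (0.0717), a mean count of at least 50 (0.0886) and the replicate block (0.0714), and without KO replicate 2 (0.542) or WT replicate 2 (0.421). TASOR and MORC2 lost theirs with total count scaling (adjusted p = 0.211 and 0.240) and in DESeq2 (0.278 and 0.363), and MORC2 also without KO replicate 2 (0.0837). A promoter count does not check the knockout, since an edit of the gene need not remove this window.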

How the data were processed

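ATAC-seq libraries of HEK293T cells were compared, 2 MORC2 KO and 2 WT. The authors trimmed reads with Trim Galore, aligned 65-base pairs with bowtie2 to the telomere-to-telomere assembly CHM13, dropped improper pairs and those with MAPQ under 30, and removed duplicates with Picard. The submitters' processing notes also name featureCounts from Subread 2.0.6. The deposited table holds raw fragment counts per promoter, not normalised. Promoters are 2 kb windows in the study's methods, which is not stated for this table. The deposited peak list, with the authors' fold, signal, score and −log10 values, was not used here.

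Counts were filtered with filterByExpr (27647 of 28775 rows kept, 1128 removed), scaled by TMM and tested with the two-sided quasi-likelihood F-test of edgeR 4.0.16 (legacy fit, R 4.3.3) without covariates, with Benjamini-Hochberg adjustment over all rows and a threshold of 0.05. Exact permutation of 2 against 2 libraries, whose smallest p is 0.333, was not used. The fit was tested on simulated data, with changes placed only in promoters with a mean count of at least 50. That simulation did not cover changes at the counts of the low members. CPM are TMM-scaled, and intervals are 95%. RefSeq (GRCh38.p14) gave symbols for 28763 rows, gene order and promoter sequences, the first window per gene where there were several. Its coordinates were not used because its build differs from that of the alignment. Identity was computed on global alignments with Biopython 1.88.

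The members and lists were chosen with earlier results of these data known. The limits of the accessibility classes were set after the values were seen. The members named are those called, the 3 highest and 3 lowest in WT, the 3 largest fold changes in each direction, ZNF91, ZNF93 and ZNF675, rows sharing most fragments with them, the called HUSH and co-repressor promoters, TRIM28 and SETDB1. The other members with values, ZNF723, LINC00663, ZNF56P, ZNF227 and ZNF235 were picked after their values were seen. A promoter of the list for other lineages is not reported here. Alternatives covered scaling (DESeq2 1.42.0 size factors, total count, loess offsets), filters, mitochondrial rows, the fit (edgeR 4, robust, DESeq2, limma-trend with limma 3.58.1), the threshold, similar neighbours, a replicate block and leaving out each library.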

Additional observations from a re-analysis of the deposited data

How the results depend on the processing

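Depth limited the low members, at 7 to 40 fragments per library, and the 2 libraries per group limited every call. The cause of the changes below was not tested.

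The 1229 promoters called (954 higher, 275 lower) became 20 with total count scaling (19 and 1), 394 with loess offsets (217 and 177), 787 with a mean count of at least 50 (520 and 267), 717 in limma-trend and 7 in DESeq2 with or without its independent filter. There were 2249 at an adjusted p under 0.1, 355 under 0.01, and 41 to 1637 without 1 library (41 without KO replicate 2, 230 without WT replicate 2).

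The 2 members called became 0 with total count scaling (6 before adjustment, 4 higher and 2 lower), 0 with loess offsets (3 and 1) and 0 in DESeq2 (1 and 1). Over all 27647 tested promoters, 2442 were higher and 507 lower before adjustment with total count scaling. These counts were 1868 and 1736 with loess offsets and 1170 and 256 in DESeq2. With a mean count of at least 50, where ZNF486 was not tested, 1 was called, and at an adjusted p under 0.01, 1. Leaving out 1 library gave 0 to 2: 1 without KO replicate 1, 0 without KO replicate 2 (edgeR; 3 and 2 at an unadjusted p under 0.05) and 0 without WT replicate 2 (2 and 4).

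The median log2 fold change of the members, −0.12, was 0.0202 with total count scaling, 0.00116 under loess offsets, 0.0778 with a mean count of at least 50, 0.11 over members with a mean count of at least 50, and −0.19 (without WT replicate 1) to −0.11 without 1 library. That of the high members was 0.25 with total count scaling and 0.10 to 0.16 without 1 library. That of the low members, −0.46, came to −0.32 with total count scaling, −0.15 with loess offsets, −0.43 in limma-trend and −0.46 to −0.32 without 1 library. Both kept their sign under every alternative in which they were tested. With a mean count of at least 50, the 16 members tested were 14 high and 2 intermediate, so no low member was.

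TRIM28 was at −0.03 and turned to 0.11 with total count scaling and to 0.0151 and 0.0387 without KO replicate 1 and WT replicate 2 (range −0.0889 to 0.0387 without 1 library). SETDB1, at −0.01, turned to 0.13 with total count scaling, 0.000263 in the edgeR 4 fit, 0.00166 in DESeq2, 0.00265 in limma-trend, and 0.0353 and 0.0790 without KO replicate 2 and WT replicate 1 (range −0.0827 to 0.0790 without 1 library). Neither was called under any of them.

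The replicate numbers did not pair the libraries: the correlation of the deviations of same-numbered libraries was 0.000263. With the replicate block, 765 promoters were called, 2 members among them, SETDB1 was at 0.00372, and PPHLN1 lost its call (adjusted p = 0.0714, edgeR).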
